A study of Mus musculus with 8 samples.

Results

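Lens transcripts of C57BL/6J mice that lack connexin 46 (α3Cx46 KO, 2 arrays) were compared with those of C57BL/6J wild-type mice (WT, 2 arrays). The comparison covers every probe set, a set of short oligonucleotides matching a transcript, that is no control and had a mean signal above 50 in at least 1 of these 2 groups. There were 9381 of them, out of 12422 on the chip that are not controls, and 6780 genes when each gene was represented by its brightest probe set. All mice were 10 days old and untreated, lenses of both sexes were pooled 20 to 30 at a time, and each pool was hybridized to an MG-U74Av2 chip. The other 4 of the 8 arrays of the study hold 129SvJae WT and 129SvJae α3Cx46 KO lenses, 2 arrays each, and served for the spread between replicates and for values set beside those of C57BL/6J. The study included the KO lenses to ask whether losing gap junctions alters transcription, at an age before cataracts are visible. The sources used here do not say whether the pools of a group came from separate litters, so the p-values describe only how these samples vary, in part perhaps technically, and they do not say which exons the disruption removed or how the KO allele was brought onto the C57BL/6J background.

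Connexins are membrane proteins that assemble into gap junction channels, through which neighboring cells exchange ions, metabolites and second messengers. The lens has no blood supply, and its elongated fiber cells depend on these channels for communication with the surface. Connexin 43, encoded by Gja1, belongs mainly to the epithelium, whereas connexin 46, encoded by Gja3, joins the fiber cells, and mice without it develop nuclear cataract of a severity that varies with the strain.

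The deposited values are MAS5 signals, linear intensities that the authors scaled to the same mean on every array, and signals near 50 are close to background. The trimmed mean after removing 2% at each end was 250.2 on all 4 C57BL/6J arrays. Median signals were 114.6 and 93.5 in WT and 109.1 and 90.9 in KO lenses, for replicate 1 and then replicate 2, and 7867 to 8602 probe sets per array exceeded 50. Replicate 1 of both groups was scanned in the same session and replicate 2 of both in another, so that each same-numbered pair of arrays gives a KO to WT ratio within a session. The replicate 1 chips were of the same lot, whereas the replicate 2 chips of WT and KO were of different lots. WT replicate 1 stood apart. Its Spearman correlation across probe sets was 0.815 with WT replicate 2, 0.801 with KO replicate 1 and 0.823 with KO replicate 2, against 0.861 to 0.927 among the other 3 arrays, and its run record notes a fluidics error. Some of the results that rest on it, such as medians of gene lists, are therefore given without it as well.

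In these lenses, limma called 1 probe set, that of protamine 1, at an adjusted p under 0.05, which is 0.0107% of the 9381. This fit did not pair the same-numbered arrays. Gja3, the disrupted gene, and a probe set of Plk3 shared the next smallest adjusted p and did not pass. At an unadjusted p under 0.05, 120 probe sets (1.28%) were higher and 111 (1.18%) lower in KO lenses. Blocking on the replicate number raised these 231 to 372, and they were 167 to 727 when 1 array was left out, the most without WT replicate 2. The criteria stated in the study's methods (a ratio of 1.8 or more, a mean over 50 in either group, and here limma's unadjusted p of 0.01 or less) were met by 37 probe sets, 19 higher (0.203%) and 18 lower (0.192%). Without WT replicate 1 these criteria were met by 38, of which 26 were higher and 12 lower, and without WT replicate 2 by 195, of which 168 were higher.

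Gja3 had a signal of 1968 and 3274 on the WT arrays and of 448 and 519 on the KO arrays. The groups did not overlap, and the KO arrays kept a signal well above 50. The mean was 2621 ± 923 (SD, n = 2) in WT and 484 ± 50.6 (SD, n = 2) in KO lenses. The log2 ratio of KO to WT was -2.40 (SE 0.41, 95% interval -3.28 to -1.51, adjusted p = 0.257 from limma over all probe sets tested), and -2.14 and -2.66 in the replicate 1 and replicate 2 pairs. No source used here tells whether the probe set reads a part of the transcript that the disruption leaves in place, so the remaining signal cannot be read as intact message. On the 129SvJae background Gja3 had signals of 1100.3 and 3381 in WT and 472 and 445 in KO lenses, and the KO effect in C57BL/6J minus that in 129SvJae was -0.32 (SE 0.58, unadjusted p = 0.588 of limma's interaction over all 10078 probe sets). With only the 4 C57BL/6J arrays in the fit the adjusted p of Gja3 was 0.00382, and with the replicate number as a block over all 8 arrays 0.0839, both from limma.

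Prm1 encodes protamine 1, a small basic protein that replaces histones when sperm chromatin is packed. Its signal was 9.99 and 4.70 on the WT arrays, under the level of 50, and 1386 and 1340 on the KO arrays. The Prm1 probe set rose in KO lenses, with a log2 KO/WT of 7.64 (SE 1.03, 95% interval 5.41 to 9.86, limma adjusted p = 0.0483) and 7.12 and 8.16 in the same-numbered pairs. Because both WT values lie in the background, the size of this ratio is set by them, and with every signal below 50 raised to 50 it was 4.77 (adjusted p = 0.158 from limma). With the replicate number as a block the adjusted p was 0.0521 from limma, and without WT replicate 1 the log2 ratio was 8.18 (limma adjusted p = 0.169). In 129SvJae lenses the WT arrays gave 387 and 14.5 and the KO arrays 1582 and 2167, so that the KO arrays were the higher there too, and the interaction was 3.01 (SE 1.46, unadjusted p = 0.0595 from limma).

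Other transcripts of haploid germ cells gave no such difference. Of 20 germ cell markers on the chip, 13 were measured above 50 in a group, and Prm1 alone had an unadjusted p under 0.05. Tnp1, which encodes a transition protein that precedes the protamines on sperm DNA, had signals of 1060 and 741 in WT and 1258 and 627 in KO lenses, a log2 ratio of 0.0036. Prm2, the second protamine, stayed under 50 on all 4 arrays, and Prm3, Tnp2 and Odf1 had log2 ratios of -0.43, -0.35 and -0.34. The suffix of the Prm1 probe set (_f) marks oligonucleotides shared within a sequence family. The study describes the knockout construct as carrying a polyadenylation sequence of a protamine gene after its neomycin cassette, and whether the probe set reads RNA from the construct or from the Prm1 gene was not tested.

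**Figure D1:**
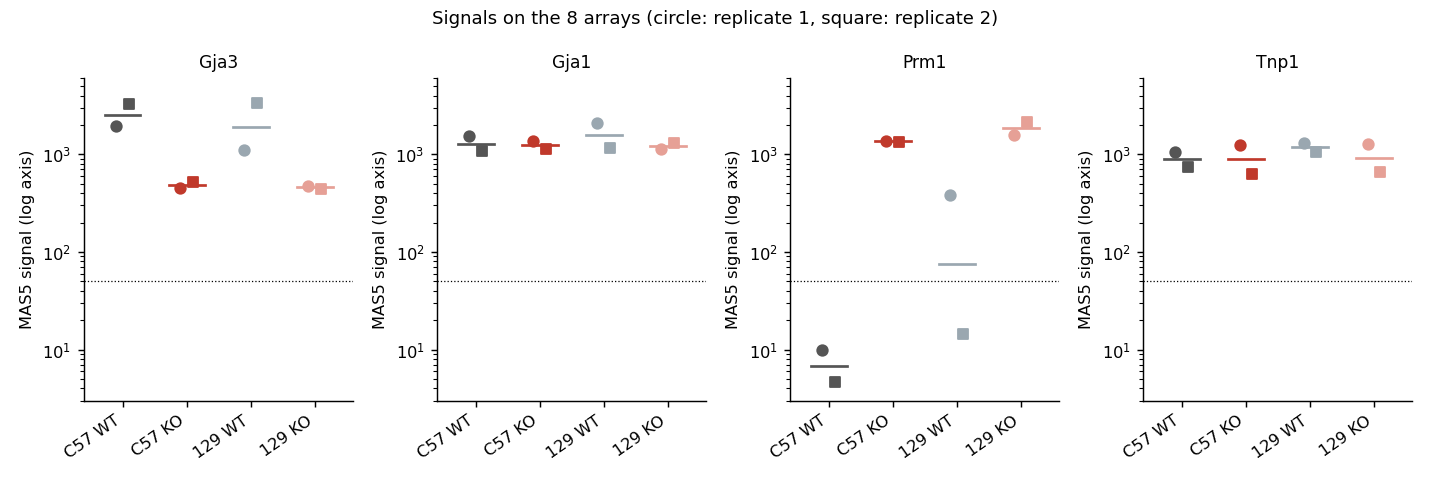
MAS5 signals (log axis) of Gja3, Gja1 (connexin 43), Prm1 and Tnp1 on the 8 arrays, with circles for replicate 1, squares for replicate 2, a bar at the geometric mean of each group (n = 2) and a dotted line at a signal of 50. The C57BL/6J KO arrays lie below both WT arrays for Gja3 (448 and 519 against 1968 and 3274) and above them for Prm1 (1386 and 1340 against 9.99 and 4.70), while the groups overlap for Gja1 and Tnp1.

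The remaining connexins measured in these lenses showed no change that passed the test. Of 11 connexins and pannexins on the chip, 7 were above 50 in at least 1 C57BL/6J group. Gja1 had signals of 1533 and 1083 in WT and 1365 and 1147 in KO lenses, with a log2 ratio of -0.04 (SE 0.29, 95% interval -0.66 to 0.58). That interval holds no 2-fold difference in either direction. Gja5 (connexin 40) gave -0.02, Gjb5 -0.45, Gjb2 (connexin 26) 0.21 and Gjb6 (connexin 30) 0.60, all with signals of at most 203 on every array. Gjd2 (connexin 36, known from neurons) was the only other connexin whose arrays did not overlap, at 8.89 and 48.0 in WT and 109 and 63.9 in KO lenses, and its ratio of 2.01 (SE 0.96, unadjusted p = 0.0558 from limma) rests on WT signals under 50.

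No gene near Gja3 passed the test either. Among the 10 nearest genes with a probe set on each side, 10 in all were measured above 50 in a group and none of these had an unadjusted p under 0.05. Gjb2 and Gjb6, the adjoining connexin genes, are among them, as is Pspc1 on the opposite side, with a log2 ratio of 1.88 (SE 1.05, unadjusted p = 0.0964 from limma) on signals of 47.4 and 7.69 in WT and 103 and 48.4 in KO lenses. Ift88, needed for building cilia, read 1165 and 1325 in WT and 1210 and 1197 in KO lenses (log2 ratio -0.05, SE 0.26). Lats2, a kinase of the Hippo pathway, read 460 and 487 in WT and 282 and 503 in KO lenses (log2 ratio -0.33, SE 0.37).

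Crystallins are the soluble proteins that give the lens its refractive power, and no crystallin transcript passed the test. Cryaa (αA-crystallin, also a chaperone) had signals of 72806 and 41075 in WT and 55641 and 38446 in KO lenses, a log2 ratio of -0.24 (SE 0.31). Crygd (γD-crystallin) had 79380 and 38726 in WT and 52344 and 38767 in KO lenses, a log2 ratio of -0.30 (SE 0.32). In both genes the WT and KO arrays of replicate 1 lay above those of replicate 2, and WT replicate 1 was the highest. Whether signals this high still follow the amount of RNA was not tested. Cryab (αB-crystallin) was the only crystallin whose groups did not overlap, at 11297 and 12932 in WT and 9823 and 10526 in KO lenses (log2 ratio -0.25, SE 0.20). Of 11 crystallins measured, 10 had a negative log2 ratio, none had an unadjusted p under 0.05, and the ratios ran from -0.30 to 0.08 with a median of -0.24, against a median of -0.00147 over the 6780 genes. The sign of that median depends on 1 array, since it was 0.06 without WT replicate 1, and it was -0.01 after quantile normalization and -0.19 with the arrays centred on their medians. The replicate 2 pair alone gave a median of -0.10, and the replicate 1 pair -0.43.

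No transcript of the fiber cytoskeleton, fiber membranes or cell junctions passed the test. Bfsp1, which encodes filensin of the beaded filaments, read 30679 and 28747 in WT and 27247 and 28880 in KO lenses (log2 ratio -0.08, 95% interval -0.50 to 0.34). Mip, the water channel aquaporin 0 that fills much of the fiber membrane, read 14691 and 16481 in WT and 13865 and 14202 in KO lenses (log2 ratio -0.15, SE 0.20). Of 26 fiber cytoskeleton and membrane genes, 18 had a positive ratio and 8 a negative one, with a median of 0.22 that was 0.06 without WT replicate 1, and none had an unadjusted p under 0.05. KO arrays lay entirely above WT arrays in 7 of the 26 and entirely below in 3, against 13.6% and 14.2% of all genes, and the ratios ran from -0.56 to 1.05. Among 20 genes of cell junctions, 14 had a positive ratio, 7 had KO arrays entirely above and 1 entirely below the WT arrays, and the ratios ran from -0.66 to 1.19. None of the 20 had an unadjusted p under 0.05, and their median was 0.17, or 0.19 without WT replicate 1. Dlg1, a scaffold protein of cell contacts, had the smallest p of them, with signals of 471 and 497 in WT and 657 and 714 in KO lenses (log2 ratio 0.50, SE 0.27, unadjusted p = 0.0879 from limma). N-cadherin (Cdh2), the main cadherin of fiber cells, read 1237 and 1471 in WT and 1350 and 1595 in KO lenses, and the tight junction protein ZO-1 (Tjp1), which binds connexins, 2485 and 2202 against 2386 and 2784.

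Genes of proteostasis, calcium and differentiation gave no call. None of 27 calcium-handling genes, 25 calpains, cathepsins and caspases, 48 chaperones, 28 genes of the unfolded protein and integrated stress responses, 48 antioxidant genes, 27 lens transcription factors or 65 genes of growth factor signaling had an unadjusted p under 0.05. Capn3, which encodes a calpain that is active in the lens, read 3450 and 2465 in WT and 2309 and 2195 in KO lenses (log2 ratio -0.37, SE 0.27), with no overlap between groups. Ctsl, a lysosomal protease, read 2328 and 2366 in WT and 2998 and 2847 in KO lenses (log2 ratio 0.32, SE 0.20), again with no overlap. Neither difference passed the test, and the groups did not overlap in 27.8% of all genes. Of the 48 chaperones 32 had a positive ratio (median 0.04), with KO arrays entirely above WT arrays in 11 and entirely below in 1. The 28 stress response genes had 10 positive and 18 negative ratios (median -0.12), with 2 entirely above and 7 below. Among the 25 calpains, cathepsins and caspases 6 were entirely above and 5 below. Of all genes, 13.6% were entirely above and 14.2% below. Atf4, the transcription factor of the integrated stress response, read 2487 and 2892 in WT and 2949 and 2931 in KO lenses (log2 ratio 0.13, SE 0.26), and Hsp90aa1, a stress-inducible chaperone, 6358 and 6536 against 7851 and 7690 (log2 ratio 0.27, SE 0.18). Pax6, the transcription factor that specifies the eye, read 647 and 640 in WT and 758 and 789 in KO lenses (log2 ratio 0.27, SE 0.24), while Prox1 and Maf, which drive fiber differentiation, gave overlapping groups.

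Genes of respiration and of the ribosome had more negative than positive ratios, with medians near 0. Of 71 oxidative phosphorylation genes 47 had a negative ratio (median -0.06, or -0.07 without WT replicate 1). Of 34 cytosolic ribosomal protein genes 26 did (median -0.12, or -0.02 without WT replicate 1). Centring the arrays on their medians moved the median of all 9381 probe sets to 0.05 and brought these list medians to -0.01 and -0.07. Atp5j, a subunit of the mitochondrial ATP synthase, read 2467 and 2422 in WT and 1618 and 2001 in KO lenses (log2 ratio -0.44, SE 0.20, unadjusted p = 0.0490 from limma). Sdha, a subunit of succinate dehydrogenase, was dim and read 168 and 83.5 in WT and 12.4 and 61.9 in KO lenses (log2 ratio -2.10, SE 0.89, unadjusted p = 0.0353 from limma). KO arrays lay entirely below WT arrays in 19 of the 71 and in 10 of the 34, against 14.2% of all genes, and 9 and 6 genes of these lists differed by 1.5-fold or more in either direction. Of 17 glycolytic genes 12 had a positive ratio, with a median of 0.12 that was -0.03 without WT replicate 1.

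**Figure D2:**
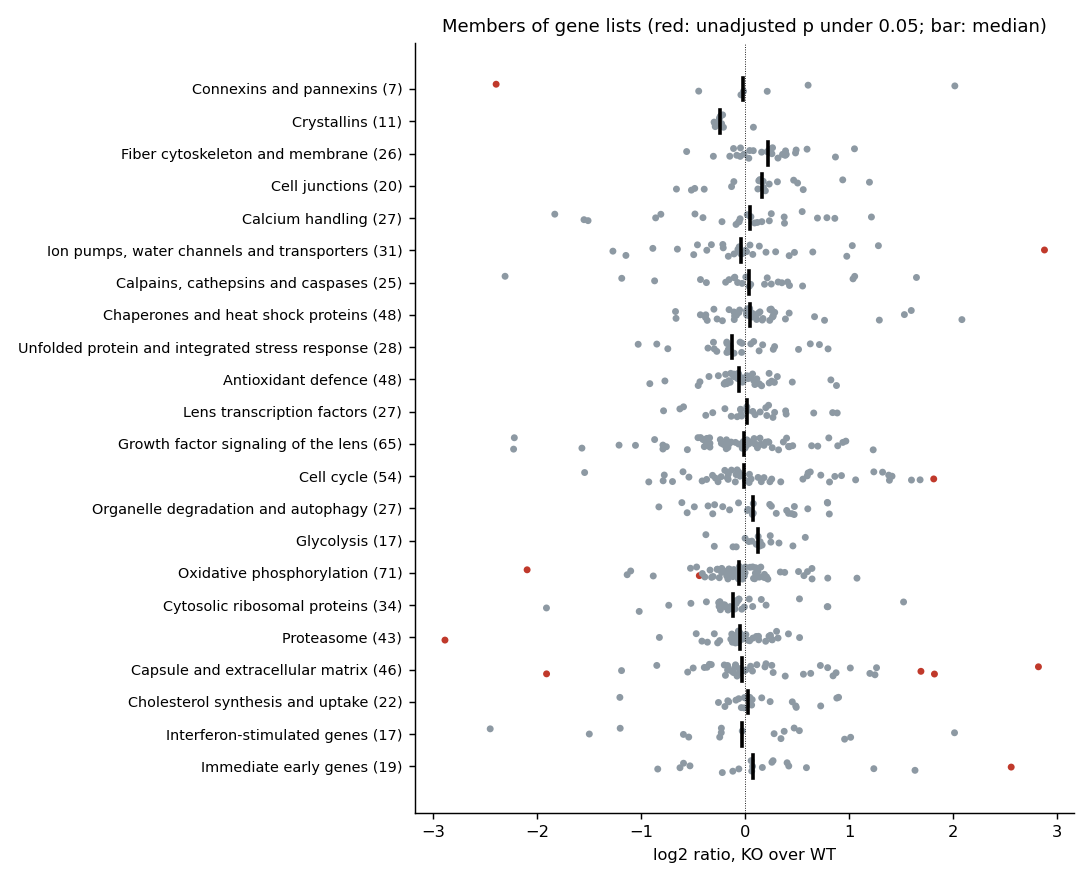
Log2 ratios of KO to WT signals in C57BL/6J lenses for the members of 22 gene lists, each gene by its brightest probe set, with the number of members in parentheses, a bar at the median, and red points for an unadjusted p under 0.05 in limma. Crystallins lie between -0.30 and 0.08, and the points farthest from 0 belong mainly to dim transcripts.

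The extracellular matrix was the list with the most members under an unadjusted p of 0.05, with 3 of 46 higher and 1 lower, against 1.21% higher and 1.08% lower among all genes. Fbn2 (fibrillin 2, a microfibril protein) read 22.8 and 13.8 in WT and 148 and 106 in KO lenses, Fn1 (fibronectin) 46.1 and 112 against 378 and 170, and Col4a4 (a chain of basement membrane collagen) 31.4 and 167 against 243 and 223. Col6a2, a chain of collagen VI, read 193 and 106 in WT and 57.1 and 25.4 in KO lenses. None of these passed after adjustment, and all 4 were dim. Col4a1 and Col4a2, the abundant collagen IV chains of the lens capsule, gave log2 ratios of -0.17 (SE 0.27) and -0.09 (SE 0.18).

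The 37 probe sets that met the criteria of the methods were mostly dim. Both group means exceeded 50 in only 19 of them, 10 higher and 9 lower. In all 37 the groups did not overlap, as against 13.8% of all probe sets with KO entirely above WT and 14.3% with KO entirely below it, but the p-value used to choose them favors such sets. Among the higher ones after Prm1 came Fbn2 at a log2 ratio of 2.82, Smarcad1 (a chromatin remodeler) at 2.70, Wdfy2 (an endosomal protein) at 2.70, Ier3 (an immediate early gene) at 2.56, Siah1a (a ubiquitin ligase) at 2.38, Adam23 (an adhesion protein) at 2.29, Blnk (an adaptor of B cell signaling) at 2.28, Grn (progranulin) at 2.28, Sema6c (a semaphorin) at 2.13, Cav3 (caveolin of muscle) at 2.11 and Urod (a heme synthesis enzyme) at 1.71. In the first 7 of these 11, from Fbn2 to Blnk, both WT signals lay under 50. The lower ones were led by Cenpe (a mitotic kinesin) at -3.51, Reg2 at -3.26, Runx1 (a transcription factor of blood formation) at -3.22, P4hb (protein disulfide isomerase) at -3.06, Meltf (melanotransferrin) at -2.77, Gja3, Taf6 (a subunit of a general transcription factor) at -2.12, Col8a1 (collagen VIII) at -2.10, Abt1 at -1.97, a probe set annotated as Mir686 at -1.73, Ift46 (a ciliary transport protein) at -1.65 and Eif5b (a translation initiation factor) at -1.63. In 7 of these 12 (Cenpe, Reg2, Runx1, P4hb, Meltf, Taf6 and Abt1) both KO signals lay under 50, so that their ratios and their order rest on values in the background. With every signal below 50 raised to 50, the criteria were met by 18 probe sets higher and 10 lower. Apart from Prm1, Gja3 and Plk3, the adjusted p-values of the 37 from limma were 0.547 or higher.

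**Figure D3:**
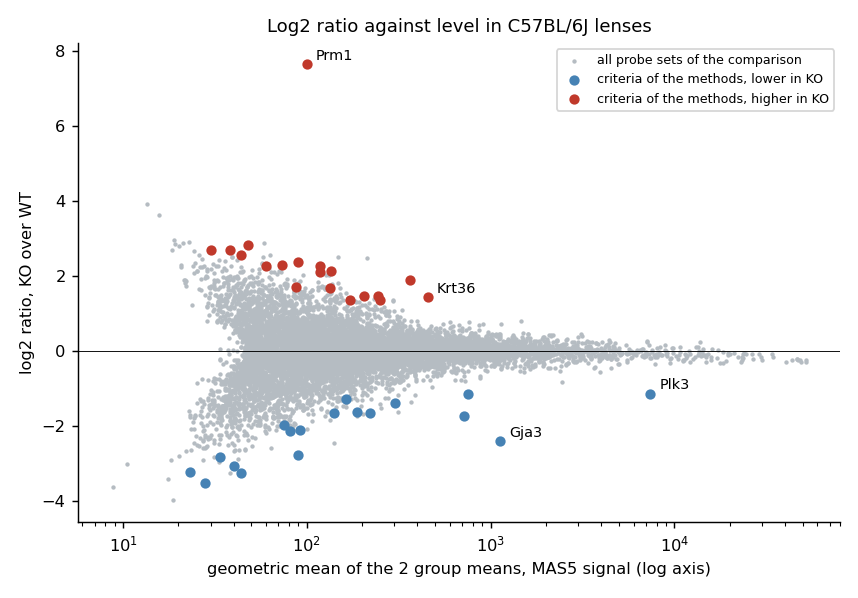
Log2 ratio of KO to WT against the geometric mean of the 2 group means (MAS5 signal, log axis) for the 9381 probe sets of the comparison, with the 18 probe sets lower and the 19 higher in KO lenses by the criteria of the methods in blue and red. The spread narrows as the signal increases, and Gja3 and Plk3 stand out among the bright probe sets.

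Other probe sets of the same genes often gave other values. P4hb read 2997 and 2899 in WT and 2640 and 2692 in KO lenses with its brighter probe set, a log2 ratio of -0.14 in place of -3.06. Eif5b read 6688 and 5674 in WT and 5769 and 5989 in KO lenses with its brighter probe set, a log2 ratio of -0.07 in place of -1.63. The second probe sets of Grn, Smarcad1 and Urod gave 0.36, 0.37 and 0.51, those of Ift46, Wdfy2 and Blnk had the opposite sign (0.13, -0.25 and -0.27), and that of Cenpe gave -0.98. Reg2, a member of a family of secreted regenerating proteins, was the case where both probe sets were far from 0. Its second probe set read 525 and 143 in WT and 28.6 and 88.2 in KO lenses (log2 ratio -2.45, SE 1.02, unadjusted p = 0.0315 from limma).

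The level of a transcript set how much could be seen. Of the 407 probe sets with a signal above 2000, 397 (97.5%) had a 95% interval of the log2 ratio that lay within a 2-fold change in either direction, as did 1153 of 1350 (85.4%) between 500 and 2000. Between 100 and 500 the number was 925 of 4150 (22.3%), and under 100 it was 0 of 3474. For the 50 brightest genes, with signals from 8155 upwards, the log2 ratio ran from -0.30 to 0.10 and all 50 intervals lay within a 2-fold change. Several of the brightest read much alike on the replicate 2 arrays. On WT replicate 2, Cryaa, Rpl41, Cryge and Crygc gave 41075, 39990, 39387 and 38058. Their log2 ratios were -0.24, -0.24, -0.25 and -0.22. Whether signals this high still follow the amount of RNA was not tested, so narrow intervals there do not show that a change is absent. Of these 50, 17 had KO arrays entirely below the WT arrays and 1 entirely above them, against 14.2% and 13.6% of all genes, and none had an unadjusted p under 0.05.

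The 2 same-numbered pairs gave largely unrelated ratios. Across the 9381 probe sets, which are not independent replicates, the log2 ratios of the replicate 1 pair and of the replicate 2 pair had a Pearson r of 0.03 and a Spearman rho of 0.01, and the sign was the same in 50.7%. Their SD was 1.18 in the replicate 1 pair, which holds WT replicate 1, and 0.77 in the replicate 2 pair. A difference of at least 1.8-fold in both pairs was seen in 198 probe sets higher (2.11%) and 285 lower (3.04%), while 428 (4.56%) differed by that much in opposite directions.

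**Figure D4:**
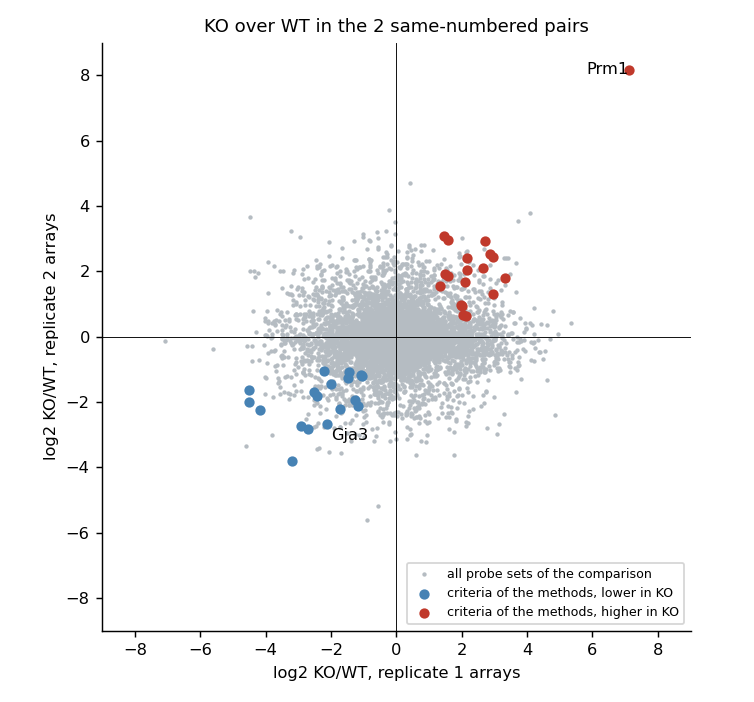
Log2 ratio of KO to WT in the replicate 1 arrays (horizontal) and in the replicate 2 arrays (vertical) for the 9381 probe sets, with those that met the criteria of the methods in blue (18 lower) and red (19 higher). The cloud has no diagonal trend (r = 0.03), and Prm1 lies alone at 7.12 and 8.16.

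The KO effect was set beside that on the 129SvJae background, which was measured on 4 separate arrays. The 2 mean log2 ratios had the same sign in 51.6% of the 9381 probe sets and in 22 of the 37 that met the criteria in C57BL/6J. The interaction, which tests whether the KO effect differs between strains, was called for 0 of 10078 probe sets by limma, and 213 (2.11%) had an unadjusted p under 0.05. Among the 37, 20 had an unadjusted interaction p under 0.05, of which the smallest after adjustment was 0.9998, and these were chosen on the C57BL/6J ratio that enters the interaction.

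Some of the 37 were set apart by their C57BL/6J WT values. Both C57BL/6J KO arrays lay within the range of the 4 129SvJae arrays and both WT arrays outside it in 12 of the 37 (32.4%), as against 229 of the 2636 probe sets whose groups do not overlap (8.69%). That range includes the 129SvJae KO arrays, and in 2 of the 12, Prm1 and Krt36, those also lay above both 129SvJae WT arrays. The 37 were chosen for a large C57BL/6J difference, which the 2636 were not. A larger difference places a group outside the range more often, so these shares are not directly comparable. The reverse, with WT inside and KO outside, was seen in 2 of the 37 and in 164 of the 2636. The brightest example was a probe set of Plk3, a stress-responsive kinase, chosen after its values were seen. It is the only Plk3 probe set on the chip, and which transcript it reads was not tested. It read 10474 and 11442 in WT and 4966 and 5028 in KO lenses of C57BL/6J, and 4086 to 5783 on the 129SvJae arrays (log2 ratio KO over WT -1.13, SE 0.20, adjusted p = 0.257 from limma). With the replicate number as a block its adjusted p from limma was 0.0847 over all 8 arrays and 0.0287 over the C57BL/6J arrays alone, a fit chosen after seeing the data. Zfr2, an RNA-binding protein also chosen after its values were seen, read 74.3 and 73.7 in WT and 206 and 277 in KO lenses, and 183 to 317 on the 129SvJae arrays.

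Of these 37 probe sets, 5 belong to genes on the chromosome that carries Gja3, out of 282 probe sets there. That is 1.77%, against 0.348% of the probe sets with 1 symbol on the other chromosomes. The share counts Gja3, which the knockout targets, so the 2 are not directly comparable. The 5 are Gja3 itself, the probe set annotated as Mir686, Ghitm, Lgals3 and Wdfy2. Wdfy2 lies 20 genes on the chip away from Gja3 and the others 42 to 102. The ratio of Wdfy2 rests on WT signals of 15.2 and 14.8, and its second probe set gave -0.25. The Mir686 probe set read 1264 and 1315 in WT and 312 and 487 in KO lenses, and 296 to 533 on the 129SvJae arrays (log2 ratio -1.73, SE 0.34, adjusted p = 0.547 from limma). With the same blocks its adjusted p from limma was 0.0847 over all 8 arrays and 0.0465 over the C57BL/6J arrays alone. The gene table places Mir686 within Psmb5, a proteasome subunit, and which transcript the probe set reads was not tested. The probe set of Psmb5 itself gave -0.02 (SE 0.32). Ghitm, a protein of the inner mitochondrial membrane, read 449 and 518 in WT and 159 and 213 in KO lenses, and 203 to 275 on the 129SvJae arrays (log2 ratio -1.39, SE 0.35). Lgals3 (galectin 3, a secreted lectin) read 107 and 194 in WT and 417 and 380 in KO lenses, and 314 to 475 on the 129SvJae arrays (log2 ratio 1.47, SE 0.38). For these 3 the C57BL/6J KO lenses were thus near the 129SvJae level, or below it in the replicate 1 array of Ghitm. On this chromosome, 12 of the 282 probe sets had KO arrays within and WT arrays outside the 129SvJae range, and 5 had the reverse. Over all 9381 the counts were 418 and 259, so neither share was larger on the chromosome. Whether the C57BL/6J KO line retains 129SvJae sequence around Gja3 was not tested.

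**Figure D5:**
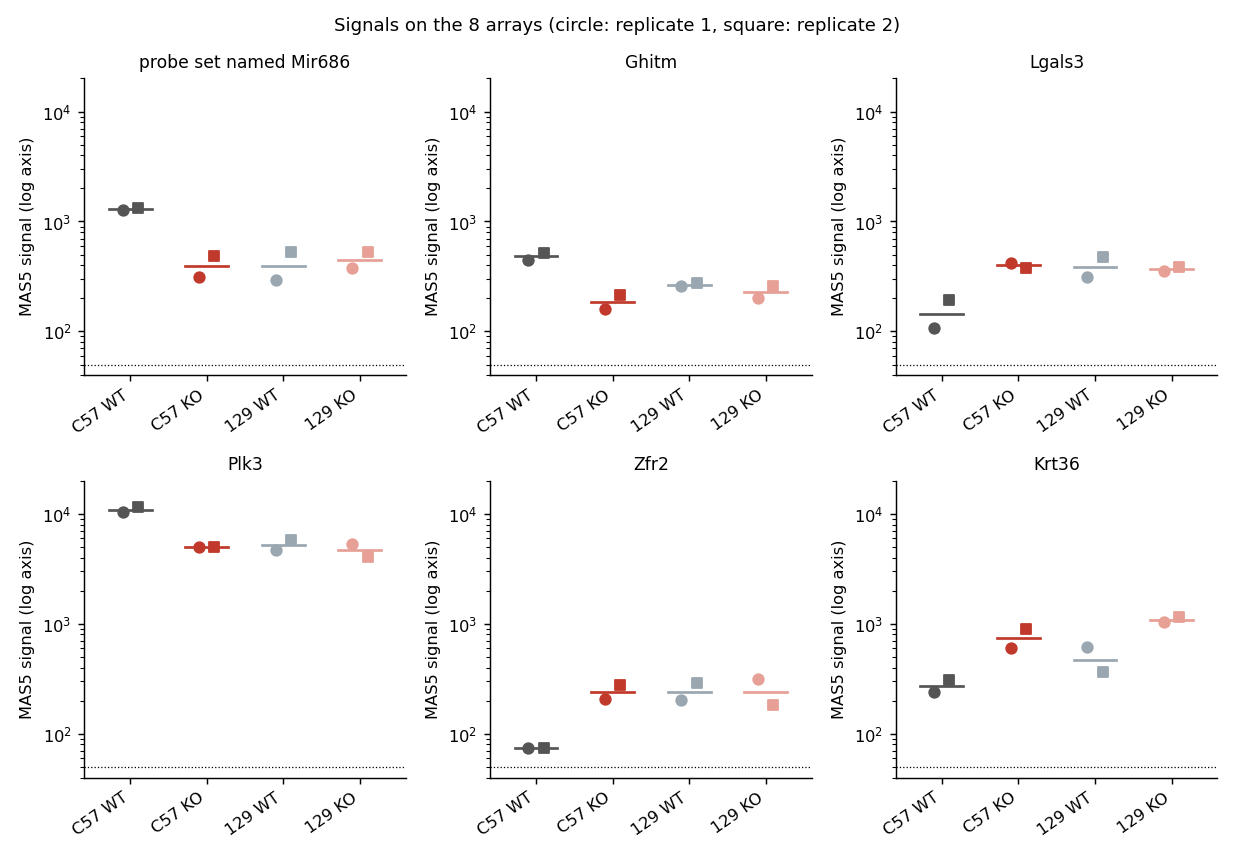
MAS5 signals (log axis) on the 8 arrays for 6 of the 37 probe sets, chosen after their values were seen, with circles for replicate 1, squares for replicate 2, a bar at the geometric mean (n = 2) and a dotted line at 50. C57BL/6J WT stands apart from the other 3 groups for the Mir686 probe set, Plk3 and Zfr2, and Krt36 is higher in KO than in WT lenses of both strains.

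In 10 of the 37, among them Gja3, Prm1, Cenpe, Col8a1, Adam23, Siah1a and Krt36, KO and WT arrays did not overlap in either strain and differed in the same direction. All 37 already did not overlap in C57BL/6J, and the share of all probe sets that do so in both strains was not counted. The 10 are therefore not read as a KO effect shared by the strains. Krt36, a hair keratin with no other probe set on the chip, is given here as an example chosen after its values were seen. It read 242 and 306 in WT and 607 and 899.5 in KO lenses of C57BL/6J, and 612 and 363 in WT and 1046 and 1144 in KO lenses of 129SvJae. The C57BL/6J log2 ratio was 1.44 (SE 0.32, limma adjusted p = 0.990) and that of 129SvJae 1.21, and the interaction was 0.23 (unadjusted p = 0.625 from limma).

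The study also listed transcripts that differ between the strains in WT and in KO lenses. The list was drawn up on these arrays, so it favors transcripts whose C57BL/6J WT and KO values are alike. The log2 ratios of KO to WT of the 41 that were measured in this comparison had a median of 0.01 and ran from -0.49 to 1.19, 21 positive and 20 negative, and none was called. KO arrays lay entirely above WT arrays in 10 of them and entirely below in 5, against 13.8% and 14.3% of all probe sets. Only Snhg6, a small nucleolar RNA host gene, and Xist had an unadjusted p under 0.05. Snhg6 read 861 and 1368 in WT and 1888 and 1935 in KO lenses (log2 ratio 0.82, SE 0.27, unadjusted p = 0.0104 from limma). Xist, the RNA that coats the inactive X chromosome in females, read 142 and 114 in WT and 276 and 304 in KO lenses (log2 ratio 1.19, SE 0.45, unadjusted p = 0.0203 from limma). On the 129SvJae arrays Xist read 536 and 259 in WT and 161 and 290 in KO lenses (interaction 1.97, unadjusted p = 0.00836 and adjusted p = 0.9998 from limma). Lenses of both sexes were pooled, and whether the share of females differed between pools was not tested. Eif2s3y, from the Y chromosome, read 202 and 190 in WT and 238 and 100.4 in KO lenses.

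The arrays carried the signals of lens. The 5 fiber markers (Cryaa, Crygd, Cryba1, Bfsp1 and Mip) were between 13865 and 79380 on every array. Of the 7 epithelial markers, Sparc, Gja1, Pdgfra, Pax6, Cdh1 and Tfap2a were between 142 and 3278, and Aqp1 between 34.5 and 154. Fewer cells of a type and less RNA per cell cannot be told apart in such pools. Markers of other tissues were mostly dim, with photoreceptor genes at most 282 and the pigment cell genes at most 240. Their summed signals over the 4 arrays, in the order of WT and then KO replicates, were 1066, 828, 1227 and 828 for 11 of 15 retinal markers on the chip, 872, 511, 679 and 455 for 6 of 7 pigment cell markers, and 618, 820, 972 and 651 for 4 of 5 blood markers. In all 3 lists the WT and KO sums overlapped. The 7 of 10 cornea markers summed to 4343, 4787, 5188 and 5156, so that both KO sums lay above both WT sums. The WT and KO arrays overlapped in each of these markers, among them Krt12 at 231 and 159 in WT and 200 and 201 in KO lenses. Whether corneal tissue had a part in any result was not tested. The sums overlapped for muscle, where the 11 of 17 markers gave 2139, 2466, 2176 and 1982. The 6 of 14 immune cell markers summed to 2575, 6579, 3408 and 4024, most of it from C1qb, a complement component, at 1927 and 6089 in WT and 2645 and 3453 in KO lenses. Of the cornea and muscle markers, Tkt and Acta2, which other tissues express too, were the brightest, at 2621 to 3914 and 759 to 1476. Rlbp1 (pigment cells) was lower and Csf1r (macrophages) and Myh8 (muscle) higher in KO lenses at an unadjusted p under 0.05 from limma. None of them passed after adjustment, and among all genes 1.21% were higher and 1.08% lower at that p. Their lists went both ways, with 3 positive and 3 negative ratios for pigment cells, 3 and 3 for immune cells, and 7 and 4 for muscle.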

How the data were processed

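The authors hybridized biotin-labeled cRNA of pooled lenses to MG-U74Av2 chips, and the deposited intensity of a probe set is a linear MAS5 signal (the tool that the submitters' processing notes name, with no version) scaled to a mean of 250. Signals were rescaled to a mean of 250 per array after trimming 2% at each end, 1 value at or below 0 became 1, and log2 signals of the 10078 probe sets whose mean exceeded 50 in any of the 4 groups entered a limma 3.58.1 fit (R 4.3.3) with 4 group means and a variance trend. Benjamini-Hochberg adjustment ran over all 10078. Intervals are 95%, and the number of arrays limits the precision. Genes were named only from the 10833 probe sets with 1 symbol (396 had several, 1193 none), and gene order came from a table of GRCm38.p6.

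Same-numbered arrays shared their deviations from the group means (r = 0.129 to 0.206 over probe sets for the 6 pairings of groups), so the numbers were taken to pair the arrays. Named genes were Gja3, called probe sets, the 12 highest and 12 lowest with 1 symbol under the criteria of the methods, those on Gja3's chromosome, and the brightest and smallest-p members of 32 gene lists. The comparison, the lists and the rules were chosen with earlier results of these data known. Alternatives were other scalings, offsets, level filters and variance priors, blocks for replicate number and scan session, array weights, the brightest probe set per gene, only the C57BL/6J arrays, the methods' t-test, and each array left out in turn.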

Additional observations from a re-analysis of the deposited data

How the results depend on the processing

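Across the 26 alternatives, Gja3 stayed lower and Prm1 higher in KO lenses. For the other 35 probe sets that met the criteria of the methods, filters left 891 values under these alternatives, and none had the opposite direction. In all 37, Gja3 and Prm1 included, the groups did not overlap, so leaving out any array could not reverse the sign. Blocks, level filters and variance priors left the log2 ratio itself unchanged. The direction could have changed only with another scaling of the arrays, and the other alternatives did not test it. With all arrays, 0 probe sets were called after quantile normalization (Prm1 log2 ratio 7.68), with a floor of 50 (4.77), with no level filter, a mean above 100, the filter in the C57BL/6J groups alone, no variance trend or the brightest probe set per gene (7.64 each), and by the methods' t-test after adjustment on log2 (7.64) and linear signals (7.54). The adjusted p of Prm1 was 0.0547 or more in these fits. With scan sessions as blocks and with only the C57BL/6J arrays, 2 were called, Gja3 (log2 ratio -2.40) joining Prm1. The criteria were met by 80 probe sets with no variance trend, 24 with the brightest probe set per gene and 20 with only the C57BL/6J arrays, and by 26 and 25 with the methods' t-test, where 317 and 297 had an unadjusted p under 0.05.

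With the replicate number as a block, 0 were called (Prm1 7.64, limma adjusted p = 0.0521) and 49 met the criteria. With that block and only the C57BL/6J arrays, chosen after seeing the data, 4 were called, namely Prm1, Gja3 (-2.40), Plk3 and the Mir686 probe set. The block changed no other call and left the interaction at 0.

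Leaving out 1 array at a time gave 0 to 2 calls, 25 to 195 probe sets under the criteria, 0 to 1 interaction calls, log2 ratios of -2.76 to -2.03 for Gja3 and of 7.09 to 8.18 for Prm1. There were 0 calls without either 129SvJae KO array, either C57BL/6J KO array or C57BL/6J WT replicate 1, and 2 (Prm1 and Gja3) without either 129SvJae WT array. Without C57BL/6J WT replicate 2 the 1 call was not Prm1 but Iglc1, an immunoglobulin gene (log2 ratio 4.59, limma adjusted p = 0.0322). The criteria count moved most without C57BL/6J WT replicate 2 (195) and KO replicate 2 (75). A group left with 1 array is assumed to vary like the others. The cause of these shifts was not tested. Signals near background and 2 arrays per group limit what could be detected.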
